A study of Rattus norvegicus with 9 samples.

Results

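Amino acid transporters were followed in kidney RNA of 3 rat strains. A gene was taken as a member if a probe on the array mapped, through its RefSeq identifier, to a rat symbol of the families Slc1a, Slc3a, Slc6a, Slc7a, Slc36a, Slc38a or Slc43a. This gave 56 genes on 58 probes, out of 13903 genes named on the array, and no measured value entered the choice. Of these 56 genes, 47 passed the signal filter and are described here, against 10861 genes of the whole array. The animals were male Dahl S rats, which become hypertensive on salt, male Dahl R rats, bred to resist it, and male SHR, which become hypertensive without added salt. All were 53 days old, had been weaned at 30 days and then ate a diet of 0.3% salt, and the labels name no further treatment. Each strain had 3 animals with 1 one-colour array each. No label tells if some rats came from 1 litter or if RNA was prepared together, and the p-values therefore reflect only how far these samples spread.

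Most filtered amino acids are taken back in the proximal tubule. Sodium, proton or exchange carriers in the brush border bring them into the cell, and exchangers and facilitated carriers in the basolateral membrane pass them to the blood. Several carriers are pairs of a heavy chain, Slc3a1 or Slc3a2, and a light chain of the Slc7 family. Other members of the same families carry osmolytes such as betaine and taurine, glutamine for ammonia production, or neurotransmitters.

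RefSeq's table of rat gene starts (assembly GRCr8) held the 250 bases before the start of 36 of the 47 members. The regions of 4 members are shown, because Slc38a1 and Slc38a2 lie next to each other in that assembly and both were higher in SHR than in Dahl R, and because Slc38a7 and Slc43a1 had the largest strain differences among the members past the threshold that have an entry. Capitals mark a match to an ATF4 amino acid response site (TGATGNAA) or an antioxidant response element (TGACNNNGC), and each region reads 5′ to 3′ in the direction of its gene.
Slc38a1, chr7:129681402-129681651, minus strand: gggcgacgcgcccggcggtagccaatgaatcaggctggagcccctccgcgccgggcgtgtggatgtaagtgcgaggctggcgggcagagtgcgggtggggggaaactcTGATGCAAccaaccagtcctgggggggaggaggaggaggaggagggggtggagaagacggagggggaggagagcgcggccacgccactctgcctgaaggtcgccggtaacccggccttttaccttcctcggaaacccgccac
Slc38a2, chr7:129742620-129742869, minus strand: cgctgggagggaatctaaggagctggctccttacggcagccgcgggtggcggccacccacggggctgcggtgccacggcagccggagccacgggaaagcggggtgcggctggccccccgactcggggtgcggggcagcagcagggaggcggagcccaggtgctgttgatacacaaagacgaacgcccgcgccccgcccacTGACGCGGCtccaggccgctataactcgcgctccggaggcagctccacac
Slc38a7, chr19:9215128-9215377, plus strand: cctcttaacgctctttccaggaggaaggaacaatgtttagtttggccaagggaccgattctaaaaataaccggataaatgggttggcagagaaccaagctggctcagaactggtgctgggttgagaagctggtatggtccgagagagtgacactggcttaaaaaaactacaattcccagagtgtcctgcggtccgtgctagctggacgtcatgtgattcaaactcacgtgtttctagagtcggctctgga
Slc43a1, chr3:90327072-90327321, plus strand: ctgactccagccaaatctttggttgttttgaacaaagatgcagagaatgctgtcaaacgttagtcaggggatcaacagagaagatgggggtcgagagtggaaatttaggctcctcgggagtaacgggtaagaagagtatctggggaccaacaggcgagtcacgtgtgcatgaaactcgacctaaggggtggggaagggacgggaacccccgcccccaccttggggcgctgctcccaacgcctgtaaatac

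The ATF4 letters lay 142 to 135 bases before the start of Slc38a1, and the antioxidant letters 50 to 42 bases before the start of Slc38a2. Slc38a7 and Slc43a1 had neither. Over both strands of all 36 member regions, TGATGNAA occurred in 2 (Slc1a4 and Slc38a1), or 5.56%, against 3.27% of the 27457 regions in the table. TGACNNNGC occurred in 4 (Slc36a1, Slc38a2, Slc3a1 and Slc6a6), or 11.1%, against 10.2%. The TATA box letters TATAAA occurred in 6 (Slc3a1, Slc3a2, Slc6a19, Slc6a21, Slc6a6 and Slc7a12), or 16.7%, against 13.1%. The 3 motifs shared no bases in these regions, although the TATA letters on both strands overlapped each other in Slc3a1 and Slc7a12, each counted once. The shares of members were close to those of all regions.

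SHR replicate 3 differed most from the other arrays in quality, with 7.93% of its spots marked as outliers. Dahl S replicate 1 also stood apart, to a lesser degree. Its highest correlation with another array was 0.974, against 0.994 to 0.997 for the arrays other than SHR replicate 3. On Dahl S replicate 1, 2.62% of spots were marked as outliers, the most after SHR replicate 3. In 8 arrays, 60.1% to 70.3% of probes were well above background, the scanner software's mark for a measurable spot, against 43.1% in SHR replicate 3, where the median local background was 88 and not 43 to 45. Of the 47 members, 28 were well above background on SHR replicate 3, against 42 and 46 on the other SHR arrays. The median standard deviation (SD) of a member within a strain was 0.19 in Dahl S, 0.15 in Dahl R and 0.51 in SHR, or 0.19 in SHR without replicate 3. For members past the threshold in a comparison with SHR, the value without that array is therefore given too. In the file headers, the 3 Dahl S arrays and Dahl R replicate 1 shared a scan date. Dahl R replicates 2 and 3 and SHR replicates 1 and 2 shared another, and SHR replicate 3 had its own. Arrays of the same scan date are called a slide here, and no slide number was used. Dahl S and SHR never shared a slide, so a fit with slide as a block compares them only through Dahl R, which stood on both slides. Kidney identity was checked on tubule markers: all 9 early proximal tubule markers on the array, which include Slc34a1, Lrp2 and Cubn, were detected.

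Values are log2 signals relative to the 75th percentile of the same array, so 0 is that percentile and 1 unit is a factor of 2. Strains were compared with limma, and the Benjamini-Hochberg adjustment ran over the 16592 tested probes, with a threshold of 0.05. A difference is given ± its standard error (SE, n = 3 and 3 unless stated). In whole kidney RNA, fewer cells of a type and less RNA per cell cannot be told apart.

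Of the 47 members, 1 passed between Dahl S and Dahl R, 9 between Dahl S and SHR, and 8 between SHR and Dahl R. These were 2.13%, 19.1% and 17% of the members, against 1.4%, 15.7% and 13% of all tested probes, so the members' shares were near the background in each comparison. In Dahl S against SHR, 5 were higher in Dahl S and 4 lower, against 7.08% and 8.62% of all tested probes. In SHR against Dahl R, 5 were higher in SHR and 3 lower, against 7.56% and 5.49%. The 1 gene between the Dahl strains was lower in Dahl S, as were 0.699% of all probes. Both comparisons use the same SHR arrays. The 12 genes involved were Slc1a1, Slc38a1, Slc38a2, Slc38a3, Slc38a7, Slc43a1, Slc43a2, Slc43a3, Slc6a9, Slc7a13, Slc7a4 and Slc7a6.

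Without SHR replicate 3 the members past the threshold numbered 3, 17 and 14, or 6.38%, 36.2% and 29.8%, against 4.59%, 26.2% and 22.7% of all tested probes. By direction, 1 was higher and 2 lower in Dahl S than in Dahl R (2.52% and 2.08% of all probes), 10 higher and 7 lower in Dahl S than in SHR (13% and 13.2%), and 7 higher and 7 lower in SHR than in Dahl R (12.2% and 10.6%). These included all of the genes above, and 9 further genes, which did not pass with all 9 arrays weighted equally. Each of these 9 also passed in at least 1 comparison when limma weighted the arrays by their quality. That fit used the same arrays and is no separate support. In it 10, 20 and 19 of the 47 members passed, as did 2313, 6127 and 5340 of the 16592 tested probes. With normexp background correction 0, 2 and 1 members passed, and of the 18 calls with all 9 arrays only the 2 of Slc1a1 held. The median member difference with all 9 arrays was -0.05 for Dahl S minus Dahl R, -0.11 for Dahl S minus SHR and 0.03 for SHR minus Dahl R, against 0.02, -0.09 and 0.11 over all probes. The median absolute difference was 0.24, 0.52 and 0.36 for members and 0.15, 0.31 and 0.29 for all probes. The values of the 2 strains did not overlap for 17 of 47 members in each of the 3 comparisons, against 31.1%, 37.9% and 38.7% of all probes.

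**Figure D1:**
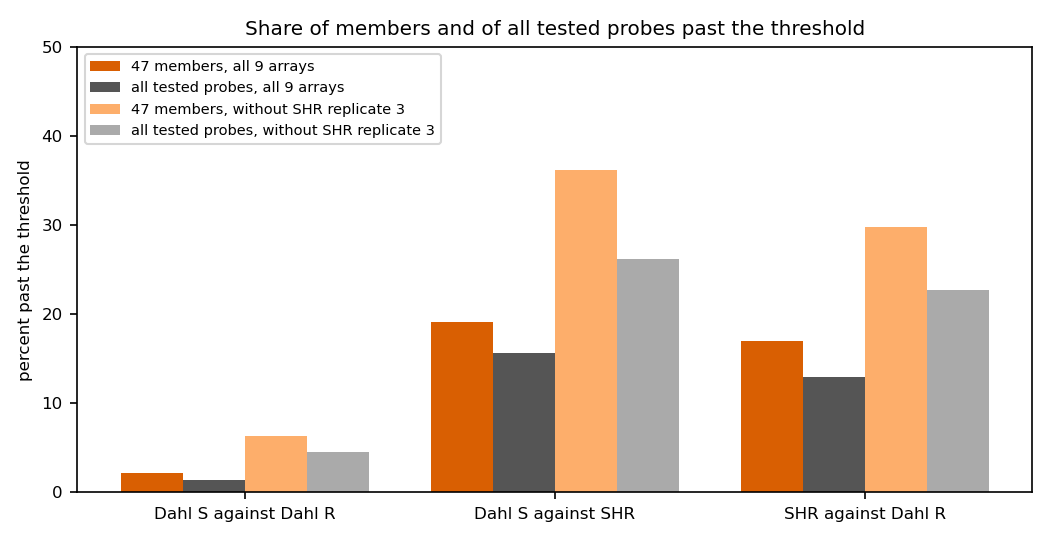
Percent of the 47 members (orange) and of all tested probes (grey) past the threshold in each comparison, with all 9 arrays (dark) and without SHR replicate 3 (light). The bars of the members stand near those of all probes in Dahl S against Dahl R (2.13% and 1.4%) and above them by the most in Dahl S against SHR without that array (36.2% and 26.2%).

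**Figure D2:**
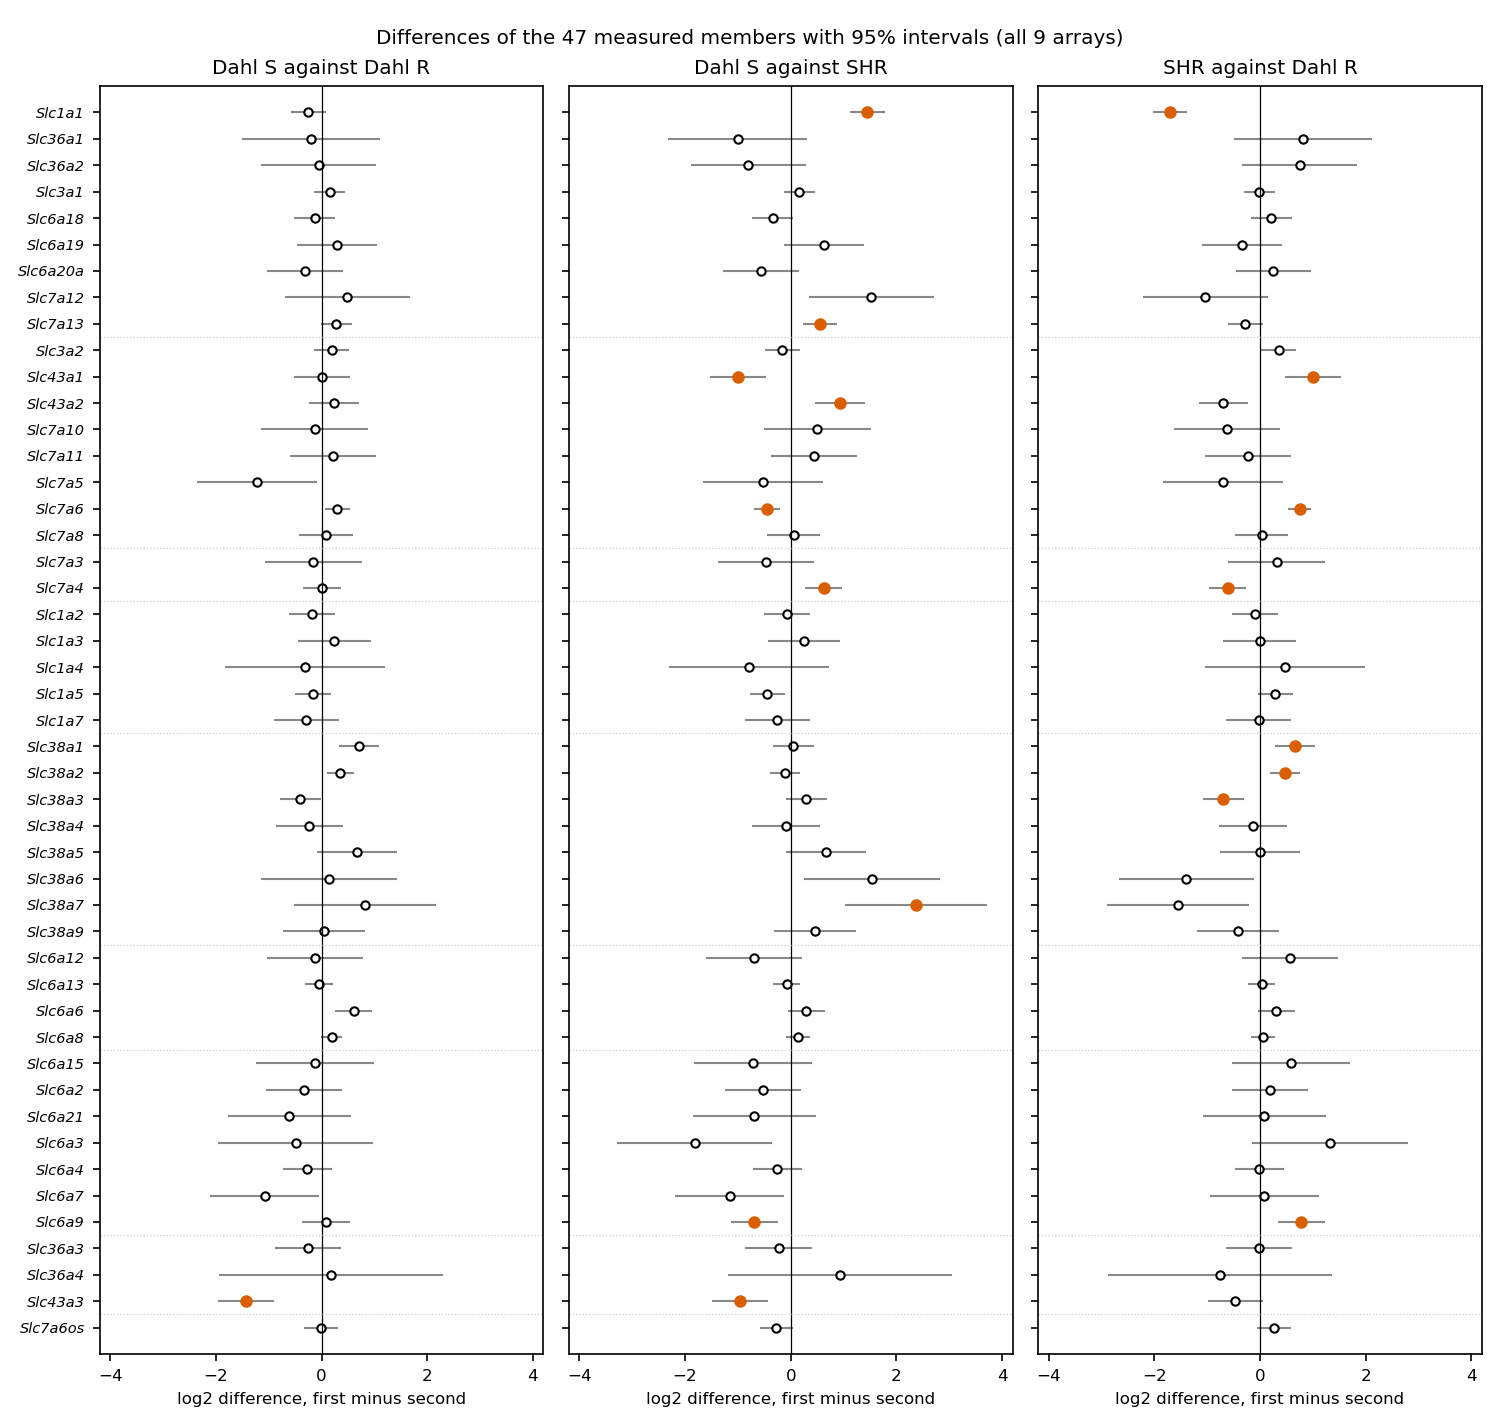
Log2 difference of each of the 47 members (horizontal axis, first strain minus second) with its 95% interval (line), for the 3 comparisons, with all 9 arrays. Filled orange points passed the threshold (1, 9 and 8 genes), and dotted lines part the roles in the order in which the text describes them.

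Among the luminal carriers of the proximal tubule, Slc1a1 had the clearest strain difference and the heavy chain Slc3a1 differed little. Of 9 measured, Slc1a1 and Slc7a13 were lower in SHR than in Dahl S. Slc1a1 was lower in SHR than in Dahl R, and none passed between Dahl S and Dahl R. These were 22.2%, 11.1% and 0% of the 9, against 15.7%, 13% and 1.4% of all tested probes. Slc1a1, which takes up glutamate, aspartate and cysteine, read 1.75, 1.39 and 1.37 in Dahl S, 1.98, 1.68 and 1.61 in Dahl R and 0.05, 0.08 and 0.02 in SHR. Every SHR value lay below every value of both Dahl strains, which overlapped each other. The level was 2.74-fold lower in SHR than in Dahl S (difference 1.45 ± 0.14, adjusted p = 0.000619) and 3.25-fold lower than in Dahl R (-1.70 ± 0.14, adjusted p = 0.000327). Within the slide that held Dahl R replicates 2 and 3 and SHR replicates 1 and 2, the difference from Dahl R was -1.58 (adjusted p = 0.00624). Without SHR replicate 3 the differences were 1.44 and -1.69 (adjusted p = 0.00102 and 0.000602), and both passed when any single array was left out (adjusted p up to 0.00322). With slide as a block, the difference between Dahl S and SHR was 1.1 with an adjusted p of 0.0526, and with the scaling and detection taken over unmarked spots it was 1.14 with 0.0949; the SHR to Dahl R difference was then -1.41 with 0.0538.

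Slc7a13, a light chain of the late proximal tubule that pairs with Slc3a1 for cystine and acidic amino acids, read 7.59, 7.50 and 7.34 in Dahl S, 7.29, 7.08 and 7.23 in Dahl R and 6.79 and 7.06 in SHR. The spot on SHR replicate 3 was marked as an outlier and dropped. The strains stood in steps with no overlap, Dahl S highest and SHR lowest. Dahl S exceeded SHR by 0.56 ± 0.14 (1.47-fold, n = 3 and 2, adjusted p = 0.0389, and 0.0166 without the rest of SHR replicate 3). Dahl S minus Dahl R was 0.28 ± 0.12 (adjusted p = 0.508) and SHR minus Dahl R -0.28 ± 0.14 (adjusted p = 0.248). The call was lost when any Dahl S or Dahl R array or SHR replicate 1 was left out (adjusted p 0.0626 to 0.126), and with slide as a block the difference was 0.42 (adjusted p = 0.354).

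Slc3a1, the heavy chain mutated in cystinuria, read 8.20, 8.08 and 7.99 in Dahl S, 8.12, 7.80 and 7.88 in Dahl R and 7.90, 8.09 and 7.78 in SHR. The 3 strains overlapped. The 95% interval of Dahl S minus SHR was -0.13 to 0.46 and that of SHR minus Dahl R -0.30 to 0.28. Slc7a9, its other light chain, was not measured here. Slc6a19, the main sodium-coupled carrier of neutral amino acids in the brush border, read 0.18, 0.14 and 0.21 in Dahl S, -0.09, -0.54 and 0.26 in Dahl R and 0.28, -0.71 and -0.94 in SHR. It spread more in SHR and Dahl R than in Dahl S, and Dahl S minus SHR was 0.63 with a 95% interval from -0.12 to 1.39; it passed without SHR replicate 1. Its neighbour in the assembly, Slc6a18, a glycine and alanine carrier, averaged 4.11 ± 0.18 (SD) in Dahl S, 4.24 ± 0.07 in Dahl R and 4.45 ± 0.31 in SHR. Slc6a20a, a proline carrier, averaged -2.29 ± 0.12, -1.98 ± 0.05 and -1.73 ± 0.71. Neither passed in any comparison (adjusted p 0.209 to 0.913). Slc7a12, a carrier of small neutral amino acids, read 4.91, 5.03 and 4.85 in Dahl S, 4.65, 4.37 and 4.30 in Dahl R and 4.11, 4.08 and 2.03 in SHR. SHR replicate 3 lay far below the others. Dahl S minus SHR was 1.52 ± 0.51 (adjusted p = 0.0849), and without that array 0.84 ± 0.12 (adjusted p = 0.00311). The proton-coupled carriers Slc36a1 and Slc36a2 did not pass, and Slc36a1 was well above background on 1 array of each strain.

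**Figure D3:**
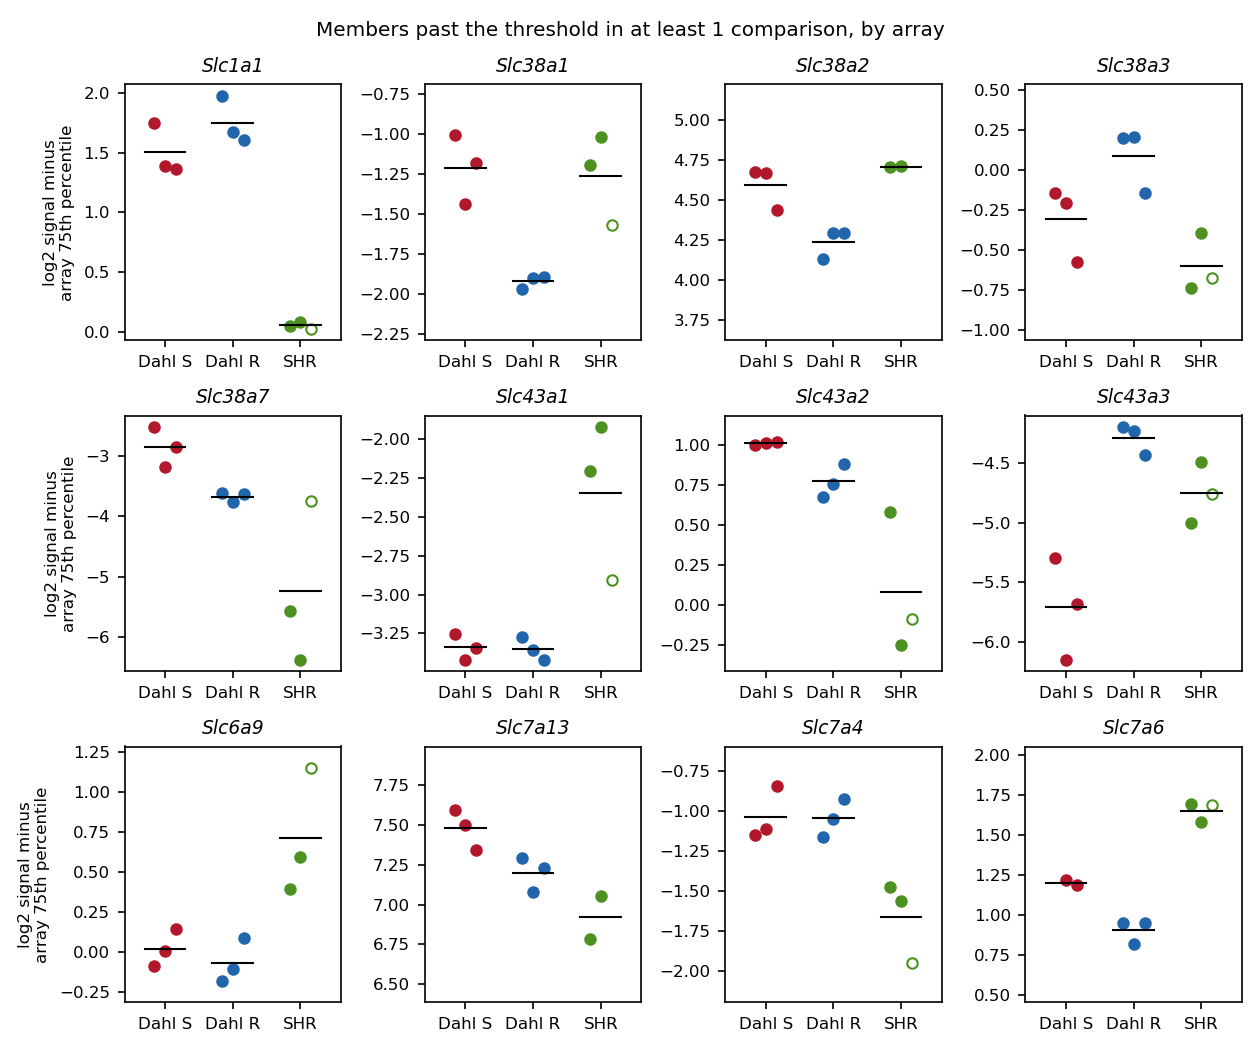
Log2 signal minus that array's 75th percentile for the 12 members past the threshold in at least 1 comparison, with 1 point per array, a line at the strain mean and SHR replicate 3 as an open circle; each panel has its own vertical scale. Slc1a1 in SHR (0.02 to 0.08) lies below both Dahl strains, and Slc7a6 in SHR (1.58 to 1.69) above them.

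Among the basolateral carriers, 3 of 8 measured passed between Dahl S and SHR and 2 between SHR and Dahl R, in opposite directions for different genes. These were 37.5% and 25%, against 15.7% and 13% of all tested probes. Slc43a1 and Slc7a6 were higher in SHR and Slc43a2 was lower. Slc43a1, a facilitated carrier of large neutral amino acids, read -3.26, -3.42 and -3.34 in Dahl S, -3.27, -3.36 and -3.42 in Dahl R and -2.21, -1.92 and -2.91 in SHR. All SHR values lay above both Dahl strains, which coincided (difference 0.01, 95% interval -0.52 to 0.54). SHR was 1.99-fold higher than Dahl S (-0.99 ± 0.23, adjusted p = 0.0241) and 2.01-fold higher than Dahl R (1.01 ± 0.23, adjusted p = 0.027). Without SHR replicate 3, on which the probe was not well above background, these were 2.42-fold and 2.44-fold (adjusted p = 0.000333 and 0.000381). Within the shared slide SHR minus Dahl R was 1.32 (adjusted p = 0.0181), and with slide as a block Dahl S minus SHR was -1.39 (adjusted p = 0.0153). With normexp background correction neither call held: Dahl S minus SHR was -0.40 (adjusted p = 0.586) and SHR minus Dahl R 1.11 (adjusted p = 0.181). The call against Dahl S was lost without any 1 of the Dahl S arrays or SHR replicate 1 (adjusted p 0.0549 to 0.0847). The call against Dahl R was lost without any 1 of the Dahl R arrays, Dahl S replicate 3, SHR replicate 1 or SHR replicate 2 (0.0509 to 0.0943).

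Slc43a2, a related facilitated carrier, read 1.00, 1.01 and 1.02 in Dahl S, 0.68, 0.75 and 0.88 in Dahl R and 0.58, -0.25 and -0.09 in SHR. The strains again stood in steps with no overlap, Dahl S highest and SHR lowest, whereas SHR was highest for Slc43a1. Dahl S was 1.90-fold above SHR (0.93 ± 0.20, adjusted p = 0.02), while SHR minus Dahl R was -0.69 ± 0.20 (adjusted p = 0.0633). Leaving out SHR replicate 3, these were 0.85 and -0.61 (adjusted p = 0.0305 and 0.0939). The call was lost without any 1 of the Dahl S arrays (adjusted p 0.0562 to 0.0677), and with slide as a block the difference was 0.99 (adjusted p = 0.245).

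Slc7a6, a light chain that pairs with Slc3a2 and exchanges arginine or lysine for neutral amino acids with sodium, read 1.22 and 1.19 in Dahl S replicates 2 and 3, 0.95, 0.82 and 0.95 in Dahl R and 1.69, 1.58 and 1.69 in SHR. The spot on Dahl S replicate 1 was marked as an outlier and dropped. No strains overlapped, and SHR was highest. SHR exceeded Dahl R 1.68-fold (0.75 ± 0.09, adjusted p = 0.00303) and Dahl S 1.37-fold (-0.45 ± 0.10, n = 2 and 3, adjusted p = 0.0271). Within the shared slide SHR minus Dahl R was 0.75 (adjusted p = 0.0285), and without SHR replicate 3 the differences were 0.73 and -0.43 (adjusted p = 0.00261 and 0.0189). The call against Dahl R held when any single array was left out (adjusted p up to 0.0212). With outlier-marked spots kept it had an adjusted p of 0.361, and the difference between Dahl S and SHR was -1.1 with 0.163. The call against Dahl S was lost without Dahl S replicate 2 or 3, any 1 of the Dahl R arrays or SHR replicate 1 (adjusted p 0.0516 to 0.129), and with slide as a block (-0.50, adjusted p = 0.168). Slc7a6os, which lies beside Slc7a6 and is named for that place but is no carrier, averaged 1.17 ± 0.14 (SD) in Dahl S, 1.17 ± 0.08 in Dahl R and 1.44 ± 0.23 in SHR. It did not pass with all 9 arrays (adjusted p = 0.25 against Dahl R), and without SHR replicate 3 SHR was above Dahl R by 0.40 ± 0.10 (adjusted p = 0.0309).

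The other basolateral members gave no call with all 9 arrays. Slc3a2, the heavy chain shared by several exchangers, read 3.95, 4.07 and 4.04 in Dahl S, 3.74, 3.79 and 3.95 in Dahl R and 4.14, 3.94 and 4.47 in SHR, and SHR minus Dahl R was 0.36 with a 95% interval from 0.03 to 0.69 (adjusted p = 0.151). Slc7a8, a basolateral exchanger of neutral amino acids, averaged 4.11 ± 0.09 (SD), 4.03 ± 0.16 and 4.06 ± 0.46 in Dahl S, Dahl R and SHR, and the 95% intervals of its 3 differences lay within -0.47 and 0.59. Slc7a5, an exchanger of large neutral amino acids found in growing cells, read -5.55, -4.0 and -3.44 in Dahl S, -2.98, -3.22 and -3.10 in Dahl R and -3.46, -4.22 and -3.74 in SHR. All Dahl R values were the highest, but the Dahl S arrays spread widely, and Dahl S minus Dahl R was -1.22 ± 0.49 (adjusted p = 0.428). Slc7a7, the partner of Slc3a2 that is mutated in lysinuric protein intolerance, was left out of the test because its spots were marked as outliers on all 3 Dahl R arrays and on SHR replicates 1 and 3. With marked spots kept, Dahl S minus Dahl R was 0.38 ± 0.24 (adjusted p = 0.735) and Dahl S minus SHR 0.36 ± 0.24 (adjusted p = 0.336).

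Of the cationic carriers only Slc7a3 and Slc7a4 passed the signal filter. Slc7a4, a relative of the cationic carriers, read -1.15, -1.11 and -0.85 in Dahl S, -1.16, -1.05 and -0.92 in Dahl R and -1.47, -1.56 and -1.95 in SHR. The Dahl strains coincided and every SHR value was lower. SHR was 1.54-fold below Dahl S (0.62 ± 0.15, adjusted p = 0.0312) and 1.53-fold below Dahl R (-0.61 ± 0.15, adjusted p = 0.0383). Without SHR replicate 3 the differences were 0.48 and -0.47 (adjusted p = 0.026 and 0.031). Within the shared slide SHR minus Dahl R was -0.53 (adjusted p = 0.0463), and with slide as a block Dahl S minus SHR was 0.66 (adjusted p = 0.137). Both calls were lost in 6 of the 9 fits that leave out an array: against Dahl S without any 1 of the Dahl S arrays, Dahl R replicate 2 or 3, or SHR replicate 2 (adjusted p 0.0526 to 0.105), and against Dahl R without any 1 of the Dahl R arrays, Dahl S replicate 1 or 2, or SHR replicate 2 (0.0524 to 0.131).

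None of the 5 measured acidic and neutral carriers of Slc1 apart from Slc1a1 passed with all 9 arrays. Slc1a5, a sodium-dependent exchanger of glutamine and other neutral amino acids, read 1.13, 0.95 and 1.41 in Dahl S, 1.33, 1.31 and 1.34 in Dahl R and 1.71, 1.73 and 1.39 in SHR. SHR replicates 1 and 2 were highest and replicate 3 fell among the Dahl S values. Dahl S minus SHR was -0.45 ± 0.14 (adjusted p = 0.0771), and without SHR replicate 3 it was -0.56 ± 0.13 (adjusted p = 0.0194). Slc1a4, an exchanger of alanine, serine and cysteine, read -4.87 and -5.16 on SHR replicates 1 and 2 and -2.39 on replicate 3, against -5.17 to -4.43 on the Dahl arrays. Only the third SHR array was high, and no comparison passed (adjusted p 0.44 to 0.962). Slc1a2 had 2 tested probes, neither past the threshold in any comparison.

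The Slc38 family, sodium-coupled carriers of glutamine and other small neutral amino acids, held 4 of the 12 genes. Of 8 measured, Slc38a1 and Slc38a2 were higher and Slc38a3 lower in SHR than in Dahl R. Slc38a7 was higher in Dahl S than in SHR. The calls were 37.5% and 12.5% of the 8, against 13% and 15.7% of all tested probes. None of the 8 passed between the Dahl strains. Slc38a1 read -1.01, -1.44 and -1.18 in Dahl S, -1.97, -1.90 and -1.89 in Dahl R and -1.20, -1.02 and -1.57 in SHR. Dahl R lay below every value of the other strains, which overlapped. SHR exceeded Dahl R 1.58-fold (0.66 ± 0.16, adjusted p = 0.0386), without SHR replicate 3 by 0.81 (adjusted p = 0.00602), and within the shared slide by 0.79 (adjusted p = 0.0266). Dahl S minus Dahl R was 0.71 ± 0.16 (adjusted p = 0.11) with all arrays and passed without SHR replicate 3 (0.71 ± 0.12, adjusted p = 0.0217). The SHR call was lost without Dahl S replicate 3, any 1 of the Dahl R arrays, SHR replicate 1 or SHR replicate 2 (adjusted p 0.0684 to 0.124).

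Slc38a2, which cells are known to raise when amino acids run short, read 4.68, 4.67 and 4.44 in Dahl S, 4.13, 4.29 and 4.29 in Dahl R and 4.71 and 4.71 in SHR, with the SHR replicate 3 spot dropped as an outlier. Dahl R was again lowest with no overlap. SHR exceeded Dahl R 1.39-fold (0.47 ± 0.12, n = 2 and 3, adjusted p = 0.0469, and 0.0168 without the rest of SHR replicate 3), and Dahl S minus Dahl R was 0.36 ± 0.11 (adjusted p = 0.262). Within the shared slide, SHR exceeded Dahl R by 0.42 (adjusted p = 0.0476), and with slide as a block the adjusted p was 0.0503. The call was lost without any array other than SHR replicate 3 (adjusted p 0.0551 to 0.144). Slc38a1 and Slc38a2, whose start regions are printed above, thus both had their lowest values in Dahl R; the next gene in the assembly, Slc38a4, averaged -5.33 ± 0.12 (SD) in Dahl S, -5.10 ± 0.24 in Dahl R and -5.24 ± 0.58 in SHR and passed in no comparison.

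Slc38a3, a basolateral glutamine carrier that supplies ammonia production, read -0.14, -0.21 and -0.57 in Dahl S, 0.20, 0.21 and -0.14 in Dahl R and -0.74, -0.39 and -0.67 in SHR. SHR lay below every Dahl R value and overlapped with Dahl S. SHR was 1.61-fold below Dahl R (-0.69 ± 0.17, adjusted p = 0.0338), without SHR replicate 3 the difference was -0.66 (adjusted p = 0.0441), and within the shared slide the difference was -0.60 (adjusted p = 0.134), and with slide as a block it was the same with an adjusted p of 0.117. The call was lost without Dahl S replicate 2, Dahl R replicate 1 or 2, or SHR replicate 1 (adjusted p 0.0582 to 0.126).

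Slc38a7, a lysosomal glutamine carrier, read -2.53, -3.18 and -2.86 in Dahl S, -3.62, -3.77 and -3.64 in Dahl R and -5.56, -6.37 and -3.75 in SHR. SHR replicates 1 and 2 were far below the Dahl arrays, while replicate 3, where the probe was not well above background, fell within the Dahl R values. Dahl S exceeded SHR 5.18-fold (2.37 ± 0.58, adjusted p = 0.0308), and 8.64-fold without SHR replicate 3 (3.11 ± 0.27, adjusted p = 0.00036). SHR minus Dahl R was -1.55 ± 0.58 (adjusted p = 0.129) with all arrays, -2.29 ± 0.27 (adjusted p = 0.00156) without SHR replicate 3 and -2.27 (adjusted p = 0.0308) within the shared slide. With slide as a block, Dahl S minus SHR was 3.03 (adjusted p = 0.0253). The call against Dahl S held without SHR replicate 3 and was lost without any other single array (adjusted p 0.0539 to 0.0928). Slc38a9, a lysosomal carrier that senses arginine, averaged -1.47 ± 0.12 (SD), -1.52 ± 0.20 and -1.93 ± 0.75 in Dahl S, Dahl R and SHR and did not pass.

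The osmolyte and creatine carriers gave no call with all 9 arrays (0 of 4). Slc6a12, the betaine carrier that medullary cells use against high tonicity, read -0.13, -0.33 and -0.17 in Dahl S, -0.13, -0.07 and -0.08 in Dahl R and 1.01, 1.00 and -0.58 in SHR. SHR replicates 1 and 2 were about 1 unit above both Dahl strains, and replicate 3 was the lowest of all 9. SHR minus Dahl R was 0.57 ± 0.39 (adjusted p = 0.385) with all arrays and 1.1 ± 0.08 (2.15-fold, adjusted p = 0.000221) without SHR replicate 3, and it was 1.09 (adjusted p = 0.0101) within the shared slide. Dahl S minus SHR was -0.69 ± 0.39 (adjusted p = 0.27) and -1.22 ± 0.08 (adjusted p = 0.000133). Its neighbour Slc6a13, which carries taurine and betaine, did not share this: it averaged -0.96 ± 0.15 (SD) in Dahl S, -0.91 ± 0.10 in Dahl R and -0.86 in SHR replicates 1 and 2. Slc6a6, the taurine carrier, read 1.41, 0.88 and 1.09 in Dahl S, 0.63, 0.50 and 0.43 in Dahl R and 0.91, 0.69 and 0.89 in SHR. Dahl R was lowest with no overlap, and Dahl S minus Dahl R was 0.61 ± 0.15 (adjusted p = 0.13). Slc6a8, the creatine carrier, averaged 5.40 ± 0.05, 5.21 ± 0.04 and, on SHR replicates 1 and 2 (n = 2), 5.27 ± 0.07, and its 3 differences had 95% intervals within -0.17 and 0.40.

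**Figure D4:**
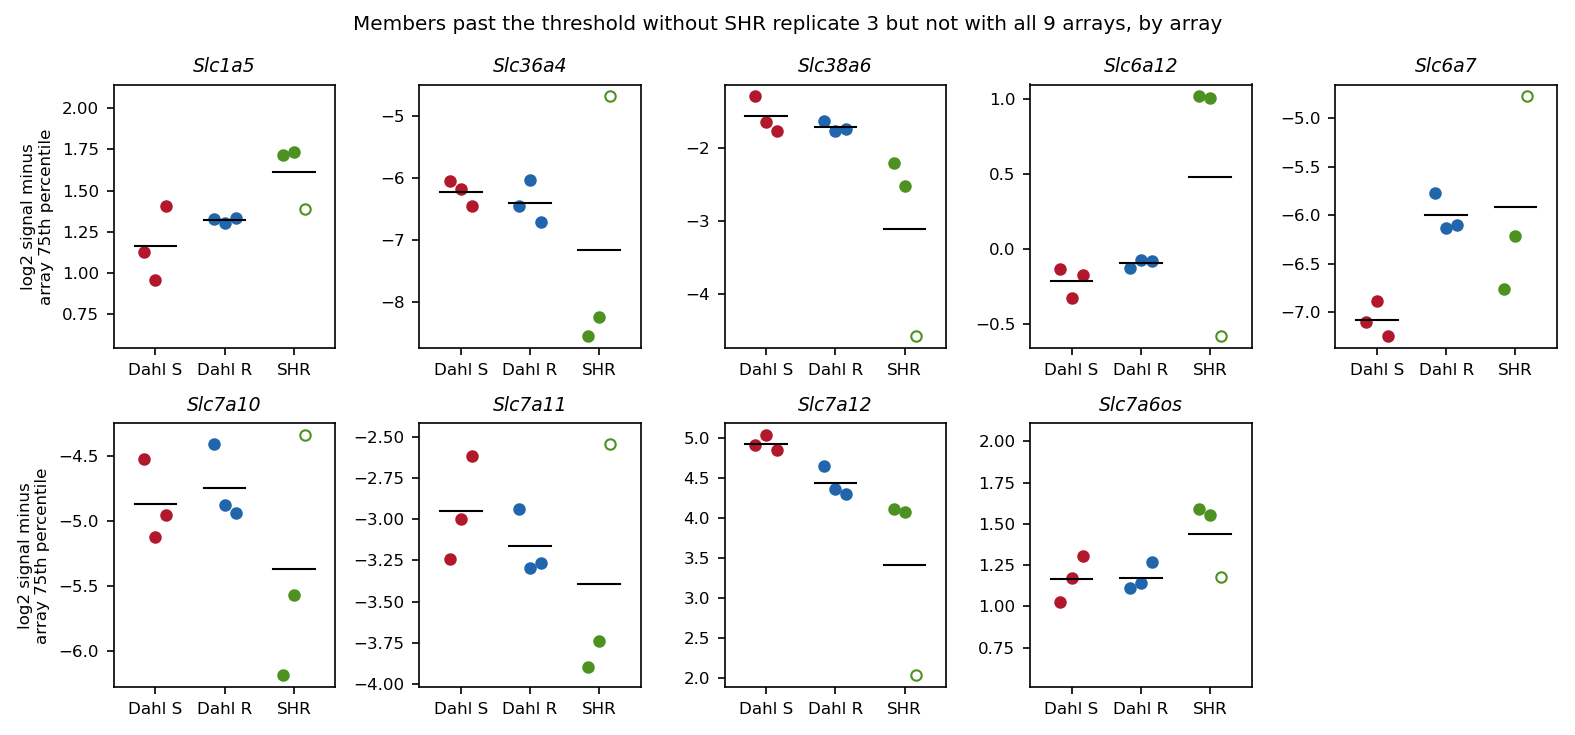
Log2 signal minus that array's 75th percentile for the 9 members that did not pass with all 9 arrays and passed once SHR replicate 3 (open circle) was left out, with 1 point per array and a line at the mean of all arrays of a strain; each panel has its own vertical scale. In Slc6a12 the open circle (-0.58) lies below all other points while the other SHR arrays (1.00 and 1.01) lie above them.

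Among 7 measured carriers of transmitters, glycine, proline and other substrates, Slc6a9 passed in both comparisons with SHR. This was 14.3% of the 7 in each, against 15.7% (Dahl S) and 13% (Dahl R) of all tested probes. Slc6a9, a glycine carrier, read -0.09, 0.00 and 0.14 in Dahl S, -0.18, -0.11 and 0.08 in Dahl R and 0.39, 0.59 and 1.15 in SHR. Every SHR value was above both Dahl strains, with replicate 3 the highest. SHR was 1.62-fold above Dahl S (-0.69 ± 0.19, adjusted p = 0.0479) and 1.72-fold above Dahl R (0.78 ± 0.19, adjusted p = 0.0374), and without SHR replicate 3 the differences were -0.48 and 0.56 (adjusted p = 0.0255 and 0.0156). Within the shared slide SHR minus Dahl R was 0.50 (adjusted p = 0.0841), and with slide as a block Dahl S minus SHR was -0.31 (adjusted p = 0.475). Both calls held without SHR replicate 1 or 3 and were lost without any other single array (adjusted p 0.0724 to 0.13 against Dahl S and 0.0543 to 0.126 against Dahl R). Slc6a7, a proline carrier, read -7.10, -6.88 and -7.25 in Dahl S, never well above background there, and -5.77, -6.13 and -6.10 in Dahl R. With the main processing Slc6a7 was at least 1.25-fold higher in Dahl R. The adjusted p was 0.448 with all 9 arrays and 0.0212 without SHR replicate 3. Its direction turned under normexp background correction, where Dahl S minus Dahl R was 1.26 (adjusted p = 0.46). The carriers of noradrenaline, dopamine and serotonin, Slc6a2, Slc6a3 and Slc6a4, did not pass.

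Slc43a3, a purine nucleobase carrier that shares its family but not its substrates with Slc43a1 and Slc43a2, was the 1 member past the threshold between Dahl S and Dahl R. It read -5.30, -6.15 and -5.69 in Dahl S, -4.2, -4.23 and -4.43 in Dahl R and -5.00, -4.49 and -4.76 in SHR. The strains stood in steps with no overlap, Dahl S lowest and Dahl R highest. Dahl S was 2.69-fold below Dahl R (-1.43 ± 0.23, adjusted p = 0.0262) and 1.95-fold below SHR (-0.96 ± 0.23, adjusted p = 0.0264). With SHR replicate 3 left out these were -1.43 and -0.97 (adjusted p = 0.0204 and 0.0341). The probe was dim, and its direction turned with the processing: under normexp background correction the differences were 0.53 and 0.43, and against SHR they were 0.24 after quantile normalization and 0.23 in the authors' deposited values. The call against Dahl R was lost without Dahl S replicate 2 or 3 or any 1 of the Dahl R arrays (adjusted p 0.0689 to 0.137), and within the slide that held 3 Dahl S arrays and Dahl R replicate 1 the difference was -1.52 (adjusted p = 0.394). The call against SHR was lost without Dahl S replicate 2 or 3, Dahl R replicate 2 or SHR replicate 2 (adjusted p 0.0512 to 0.0757), and with slide as a block (-1.1, adjusted p = 0.275). In the assembly, 1 protein-coding gene lies between Slc43a3 and Slc43a1, whose strain pattern differed, with SHR highest.

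On SHR replicate 3 the 75th percentile of the signal was 1462 over all non-control spots and 710 over unmarked spots. The other arrays moved far less, so the level of the values on SHR replicate 3 depends on the spots used for scaling. With the main scaling, SHR replicate 3 was not displaced in 1 direction over the members. Of 44 members with a value on every SHR array, it was the highest SHR array for 19 and the lowest for 15. It lay over 1 unit above the mean of the other SHR arrays for 12 members, 10 of which were not well above background on it, and over 1 unit below for 5. Slc36a4, a carrier of proline and tryptophan, read -8.56 and -8.25 on SHR replicates 1 and 2 and -4.69 on replicate 3, well above background on none. Without replicate 3, the adjusted p of Dahl S and Dahl R against SHR was 0.000769 and 0.0013. The Dahl S and Dahl R means were 2.01-fold and 1.78-fold above the lowest measurable signals of SHR replicates 1 and 2. The probe was well above background on only 1 Dahl S and 2 Dahl R arrays, so these folds are no lower bounds. With all arrays no fold can be given (adjusted p = 0.511 and 0.62). Slc38a6, Slc7a10 and Slc7a11 also did not pass with all 9 arrays and passed without SHR replicate 3, with the following values. Slc38a6 was 1.74-fold higher in Dahl S than in SHR (0.80 ± 0.16, adjusted p = 0.0118) and 1.58-fold higher in Dahl R (-0.66 ± 0.16, adjusted p = 0.0273). Slc7a10, a carrier of small neutral amino acids, was higher in Dahl S by 1.01 ± 0.27 (adjusted p = 0.0318) and higher in Dahl R (-1.14 ± 0.27, adjusted p = 0.0237). Slc7a11, the cystine and glutamate exchanger, was higher in Dahl S by 0.87 ± 0.20 (adjusted p = 0.0187). Under normexp background correction with all 9 arrays, SHR minus Dahl R turned positive for Slc36a4 and Slc7a10. It was then 0.20 and 0.19 (adjusted p = 0.91 and 0.914).

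**Figure D5:**
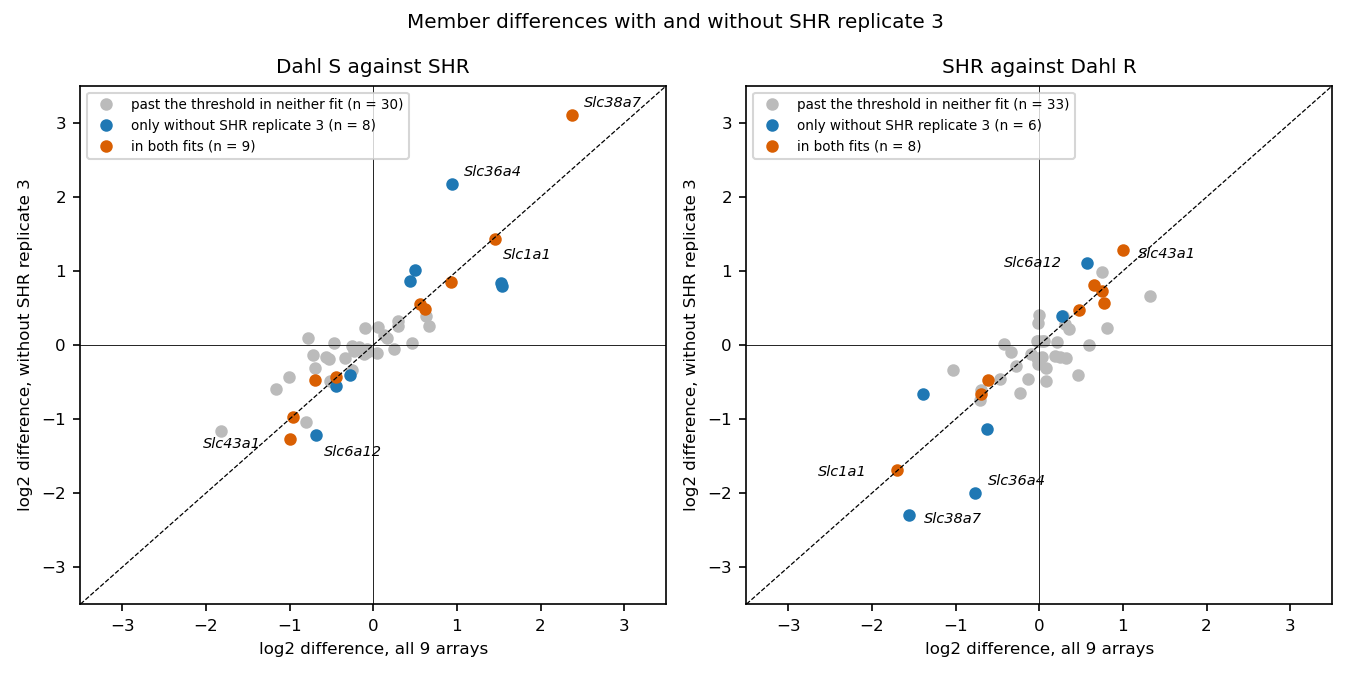
Log2 difference of each of the 47 members with all 9 arrays (horizontal axis) and without SHR replicate 3 (vertical axis), for both comparisons with SHR, with the line of equal values dashed. All genes past the threshold with all 9 arrays (orange, 9 and 8 genes) also passed without that array, and 8 and 6 more passed only without it (blue); Slc38a7 and Slc36a4 lie farther from 0 without it.

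Some markers of other kidney cells also passed the threshold between strains. Over all tested probes, 15.7% passed between Dahl S and SHR, 13% between SHR and Dahl R and 1.4% between the Dahl strains. The collecting duct shares were 40%, 60% and 10%. With all 9 arrays, every other marker list had at most 3 markers past the threshold in a comparison. Of 6 thick ascending limb markers, 1 was higher and 1 lower in SHR than in each Dahl strain. Of 5 podocyte markers, 1 was higher in SHR than in Dahl S. Of 10 collecting duct markers, 6 were higher in SHR than in Dahl R and 4 were higher in SHR than in Dahl S (6 and 3 without SHR replicate 3). Their summed level (5 genes with a value on every array, in multiples of each array's 75th percentile) was 83.2 to 104.8 in Dahl S, 76.9 to 103.0 in Dahl R, and 146.4, 122.6 and 154.0 on SHR replicates 1, 2 and 3. Most of this sum came from 1 gene, Aqp2, whose log2 means were 6.32 in Dahl S, 6.28 in Dahl R and 6.92 in SHR. The sum is thus mainly the level of Aqp2, which is also a tonicity response gene below. Distal convoluted tubule markers summed to 83.7 to 110.1, 86.1 to 111.9 and 122.6 to 163.6 in Dahl S, Dahl R and SHR (1 of 3 tested was higher in SHR than in either Dahl strain), and endothelial markers to 24.3 to 26.4, 23.6 to 25.4 and 32.9 to 44.7 (1 of 6). Early proximal tubule markers overlapped, at 345.1 to 363.6, 294.1 to 380.6 and 287.7 to 367.7, with 2 of 9 higher in Dahl S and 2 of 9 higher in Dahl R than in SHR. Late proximal tubule markers summed to 61.8 to 79.5, 70.8 to 86.5 and 82.8 to 125.1, with 1 of 6 higher and 1 lower in Dahl S than in SHR and 1 lower in SHR than in Dahl R. In Dahl S, stromal and muscle markers summed to 33.8 to 51.5, against 11.3 to 13.4 in Dahl R and 8.7 to 17.9 in SHR (1 of 5 was higher in Dahl S than in each other strain). Compared with SHR, Dahl S had higher levels of 3 of 9 leukocyte and 3 of 6 red cell markers. Of 5 fat cell markers tested, 2 (Lpl and Ucp1) were higher in SHR than in each Dahl strain, and of 4 nerve and glia markers 1 was higher in Dahl S than in SHR. Lep, a defining marker of fat cells, was detected on no array, while 5 of 6 fat cell markers on the array were detected. The part of these cell types in the member differences was not tested.

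Other genes of amino acid handling were called in both directions. Of 33 measured genes of amino acid metabolism, 4 differed between Dahl S and Dahl R (1 up in Dahl S, 3 down), 8 between Dahl S and SHR (4 up in Dahl S, 4 down), and 10 between SHR and Dahl R (3 up in SHR, 7 down). These were 12.1%, 24.2% and 30.3% of the list, against 1.4%, 15.7% and 13% of all tested probes. Cndp1, which splits carnosine, was 3.35-fold lower in SHR than in Dahl R (-1.74 ± 0.18, n = 2 and 3, adjusted p = 0.00188) and 2.13-fold lower in Dahl S (-1.09 ± 0.17, adjusted p = 0.0332). Arg1, an arginase, was 2.20-fold lower in Dahl S than in Dahl R (adjusted p = 0.0154), and Bhmt, which uses betaine to make methionine, 2.17-fold lower in Dahl S than in SHR (adjusted p = 0.0135). Of 19 genes of the response to amino acid shortage, 1 was lower in Dahl S than in Dahl R, 4 were higher and 1 lower in Dahl S than in SHR, and 2 (Trib3 and Asns) were lower in SHR than in Dahl R; Asns is also 1 of the 4. Without SHR replicate 3, where Asns drops out, 3, 9 and 3 of 18 passed. Sesn2, an inhibitor of growth signalling, was 2.83-fold higher in Dahl S than in SHR (1.5 ± 0.32, adjusted p = 0.0188, and 1.89 with 0.000584 without SHR replicate 3), and Trib3, a pseudokinase of the same response, was 2.64-fold lower in SHR than in Dahl R (-1.40 ± 0.20, adjusted p = 0.0039, and -1.57 with 0.0015 without it). The SHR level of Asns, asparagine synthetase, rests on replicate 3 alone, so no difference is given for it.

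Of 12 measured carriers of amino acids and peptides outside the 7 families, Slc17a5 was lower in Dahl S than in Dahl R. Slc17a5 and Slc25a15 were lower in SHR than in Dahl R. Between Dahl S and Dahl R, Dahl S and SHR, and SHR and Dahl R, 1.4%, 15.7% and 13% of all probes passed. The shares were 8.33%, 8.33% and 16.7% for these carriers, and 0%, 20% and 10% for brush border partners and peptidases. For tonicity response genes they were 0%, 42.9% and 28.6%. Slc25a15, the ornithine carrier of mitochondria, was 2.92-fold lower in SHR than in both Dahl S (1.54 ± 0.24, adjusted p = 0.00497) and Dahl R (-1.55 ± 0.24, adjusted p = 0.00549), with 1.29 and -1.30 without SHR replicate 3 (adjusted p = 0.00235 and 0.0027), and Slc17a5, which exports sialic acid from lysosomes, was 1.59-fold lower in SHR than in Dahl R (adjusted p = 0.00308). Of 10 brush border partners and peptidases, Anpep, a peptidase, was 1.90-fold higher in SHR than in Dahl R (adjusted p = 0.00775), Dpp4, another, was 1.5-fold higher in SHR than in Dahl S (adjusted p = 0.0465), and Cubn, an uptake receptor, was 1.36-fold lower in SHR than in Dahl S (adjusted p = 0.0308), each with 2 SHR arrays. Of 7 tonicity response genes, Akr1b1 and Aqp2 were higher in SHR than in both Dahl strains. Akr1b1, aldose reductase, which makes sorbitol, exceeded Dahl R by 0.70 ± 0.14 (1.62-fold, n = 2 and 3, adjusted p = 0.0199) and Dahl S 1.49-fold (adjusted p = 0.0336). Aqp2, the water channel of the collecting duct, exceeded Dahl R 1.55-fold (adjusted p = 0.0356) and Dahl S 1.51-fold (adjusted p = 0.0383, and 0.0528 without SHR replicate 3). This is the same gene that was counted among the collecting duct markers above. Sgk1, a kinase raised by aldosterone and by tonicity, was 2.11-fold higher in Dahl S than in SHR (1.08 ± 0.15, n = 3 and 2, adjusted p = 0.00545).

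The remaining genes of the rule gave no strain comparison. Slc6a11, Slc6a14, Slc6a5, Slc7a14, Slc7a15, Slc7a2 and Slc7a3l1 were on the array but too dim for the filter, and 13 symbols, among them Slc7a9, Slc7a1, Slc1a6 and Slc38a8, were not measured here.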

How the data were processed

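Total kidney RNA (1 μg per animal) was labelled with Cy3 and hybridised to 9 one-colour Agilent arrays, per the labels' protocols, and scanned images were read by Agilent Feature Extraction, version 10.5.1.1, according to the submitters' processing notes. The deposited intensity values were the background-corrected, the median and the background signal of 43553 spots, with 0 or 1 marks for detection and outliers, per the file headers. The authors' deposited log2 values of 19407 probes, whose normalization is not given in the sources used here, served as an alternative.

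Control spots (1417) and outlier-marked spots were left out, the processed signal was divided by the array's 75th percentile and log2-transformed, and spots of a probe were averaged. The test covered 16592 of 24684 probes: those with a share of 0.5 or more of their spots marked well above background on 3 or more arrays, and a usable spot in every strain. A gene with several tested probes is given by the one with the highest mean. Strains were compared with limma 3.58.1 in R 4.3.3 over all 9 arrays, with Benjamini-Hochberg adjustment over all tested probes (checked on simulated data). Where no array of a strain measured a probe above background, only a fold over the lowest measurable signals is given. It is a bound only where the other strain was well above background on all of its arrays. Probe IDs were named through RefSeq accessions (assembly GRCr8), and no coordinates of the array design were used. Precision is limited by 3 arrays per strain.

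Genes named with values were all members past the threshold, a fixed list of main carriers, and up to 3 genes of each other list, those with the largest differences past the threshold; members added by leaving out SHR replicate 3, further members given with their values, and Lpl and Ucp1 were chosen after their values were seen. Members and lists were chosen with earlier results of these data known. Alternatives covered background correction, normalization, marked spots, the filter, slide and replicate as blocks, array weights, fits of 2 strains alone, fits within a slide, and leaving out each array. Some items are not reported here.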

Additional observations from a re-analysis of the deposited data

How the results depend on the processing

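Counts of members past the threshold are in a fixed order: between the Dahl strains, then between Dahl S and SHR, then between SHR and Dahl R. They were 1, 9 and 8 as reported, 0, 2 and 1 with normexp background correction, 0, 8 and 8 with quantile normalization, 0, 3 and 4 when scaled to the array median, 0, 2 and 1 with the percentile and detection over unmarked spots, 1, 7 and 6 with outlier spots kept, and 0, 7 and 8 with the authors' deposited values. They were 0, 1 and 2 with no filter on dim probes, 0, 6 and 8 over probes well above background on all 9 arrays, 0, 4 and 10 with slide as a block, 10, 20 and 19 with limma array weights, and 3, 1 and 2 in fits of only the 2 strains compared. Within the slide of Dahl S and Dahl R the count was 0, and within that of SHR and Dahl R it was 10, with 6 of the 8 reported genes among them. Leaving out 1 array gave 0 to 3, 1 to 17 and 2 to 14, the highest without SHR replicate 3. With the replicate number as a block the counts were 0, 5 and 5. Deviations from the strain mean correlated at -0.164 to 0.068 between arrays of the same number. Between arrays of different numbers they correlated at -0.184 to 0.195. With 3 arrays per strain, these correlations cannot tell whether the numbers pair samples.

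Over all probes, calls numbered 233, 2605 and 2165 as reported, and 43, 550 and 416 with normexp, 38, 601 and 477 over unmarked spots, 93, 1491 and 1188 with no filter, 164, 866 and 2648 with slide as a block, 75, 1902 and 1424 with the replicate block, 2313, 6127 and 5340 with array weights, and 770, 1208 and 1171 in fits of 2 strains. The share of calls higher in the first strain was 50.2%, 45.1% and 57.9% as reported and 65.1%, 70.4% and 41.1% with normexp. The median of all probes moved by 0.12, 0.20 and 0.08 with normexp and by -0.02, -0.27 and 0.26 over unmarked spots.

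Of 382 rechecks of the 18 called gene and comparison pairs, 378 kept the direction, and 193 of these no longer passed. The 4 that reversed were all of Slc43a3: 0.53 against Dahl R and 0.43 against SHR with normexp, 0.24 against SHR with quantile normalization and 0.23 against SHR in the authors' values; the cause was not tested. In the leave-one-out fits, 3 pairs passed every time (Slc1a1 in both comparisons with SHR and Slc7a6 in SHR against Dahl R) and 15 were lost at least once.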
